A study of Homo sapiens with 2 samples.

Results

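Expression of the aminoacyl-tRNA synthetase genes was examined in HEK293T cells that had recovered from heat shock. Each of these enzymes joins an amino acid to its tRNA, the step that fixes which amino acid a codon stands for, and human cells keep largely separate gene sets for the cytosol and for mitochondria, whose enzymes are made in the cytosol and imported. In the cytosol several of the enzymes are held in a multi-synthetase complex by the AIMP scaffold proteins. The members were taken from a list by current or older gene symbol and matched to Ensembl identifiers. They comprised 37 genes of the 57736 listed, namely 19 cytosolic synthetase genes, 16 mitochondrial synthetase genes and the scaffold genes AIMP1 and AIMP2. GARS1 and KARS1, counted here as cytosolic, also encode the mitochondrial glycine and lysine enzymes.

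RNA-Seq of poly(A)+ RNA had been performed on HEK293T, a cell line of human embryonic kidney origin that expresses a viral T antigen and is labelled wild type, after 20 min at 43 °C and 6 h at 37 °C. The heating time is that of the labels. The text of the study gives a longer one, stated with a shorter recovery, and names no other for the 6 h recovery. The labels gave 1 group of 2 libraries, replicate 1 with 22529828 expected counts and replicate 2 with 26890199, from separately lysed cells. Whether the cells came from separate cultures was not stated, so the spread between the libraries may be technical. Untreated cells were not analysed here, so the values describe levels after recovery and the difference between replicates, and not a response to heat. Of 5 markers of differentiated kidney cells, 0 reached 1 TPM in both libraries, and their values did not exceed 0.18 TPM. All 4 markers commonly seen in this line did reach it. TPM, the unit of the levels below, divides the reads of a gene by its transcript length and is scaled to the same total in each library.

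Cytosolic synthetase genes are known targets of ATF4, a transcription factor of the amino acid and stress responses that binds the CHOP-ATF composite element together with a C/EBP partner. The promoter stretches that hold this element (TGATGNAA on either strand, where N is any base) are therefore shown here, in capitals, before the levels of the genes. Promoter windows of 300 bases, 250 before and 50 after an annotated start, came from RefSeq on GRCh38.p14 and were given for 32 of the 37 members, in 44 windows. The element was found in 7 of 16 cytosolic genes, in 1 of 14 mitochondrial genes, YARS2, and in neither scaffold gene. Each stretch reads 5′ to 3′ on the strand of its gene:
GARS1 (chr7:30594834-30594863, + strand, element beginning 33 bases before the start): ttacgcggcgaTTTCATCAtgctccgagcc
MARS1 (chr12:57488053-57488082, + strand, 4 bases before the start): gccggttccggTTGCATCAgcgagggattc
TARS1 (chr5:33440956-33440985, + strand, 2 bases after the start): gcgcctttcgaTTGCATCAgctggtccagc
IARS1 (chr9:92293692-92293721, − strand, 13 bases before the start): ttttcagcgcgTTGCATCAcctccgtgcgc
AARS1 (chr16:70289675-70289704, − strand, 187 bases before the start): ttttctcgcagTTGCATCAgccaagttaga
NARS1 (chr18:57621804-57621833, − strand, 14 bases after the start): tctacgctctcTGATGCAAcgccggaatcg
CARS1 (chr11:3057407-3057436, − strand, 2 bases before the start): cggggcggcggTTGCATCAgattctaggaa
YARS2 (chr12:32756076-32756105, − strand, 197 bases before the start): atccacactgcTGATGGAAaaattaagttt

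In 5 of these genes, MARS1, TARS1, IARS1, AARS1 and CARS1, the matched letters were TTGCATCA, and NARS1 held the same letters on the opposite strand. The element lay within 33 bases of the annotated start in GARS1, MARS1, TARS1, IARS1, NARS1 and CARS1. Its share was 43.8% among the cytosolic genes and 7.14% among the mitochondrial genes, against 3.64% of 15318 protein-coding genes and 4.46% of all 27305 genes with a window. A match to these letters describes the sequence only, and binding was not measured. No window was given for AARS2, LARS1, VARS1, VARS2 and YARS1.

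Of the other motifs, the cyclic AMP response element TGACGTCA, a palindrome, was found in AIMP2 alone among the members, which is 3.12% of them against 3.05% of protein-coding genes. This stretch is shown because AIMP2 is the scaffold with the higher level:
AIMP2 (chr7:6009192-6009221, + strand, 69 bases before the start): ggtcgacttcgTGACGTCAaagagcctggg
The core of the heat shock element, GAANNTTC, which is bound by HSF1, was found in AIMP2, GARS1, HARS2 and NARS1, or 12.5% of members against 7.42% of protein-coding genes. The GARS1 core is shown as it lies in the member with the highest TPM, and GARS1 holds both this core and the CHOP-ATF letters:
GARS1 (chr7:30594580-30594609, + strand, 144 bases before the start): acctatgctttGAAGGTTCtcgtgtgtctc
The E-box CACGTG, a palindrome bound by MYC, was found in AIMP2, CARS2, EARS2, IARS1 and MARS2, or 15.6% of members against 11% of protein-coding genes.

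The first question was how the levels of the cytosolic, mitochondrial and scaffold genes compared. All 37 members were detected, with at least 1 TPM in both libraries, as were 26.3% of all listed genes and 63.8% of protein-coding genes. The median of the cytosolic genes was 147 TPM in replicate 1 and 167 TPM in replicate 2, and that of the mitochondrial genes was 18.5 and 17.7 TPM. Detected protein-coding genes, of which there were 12367, had medians of 17.3 and 19.8 TPM. The mitochondrial enzymes thus lay near the typical expressed gene and the cytosolic enzymes well above it. The cytosolic median was 7.96 times the mitochondrial median in replicate 1 and 9.43 times in replicate 2 (mean 8.70 ± 1.04, SD, n = 2). With expected counts per longest annotated coding length in place of TPM, the ratio of medians was 5.78 ± 0.211.

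**Figure D1:**
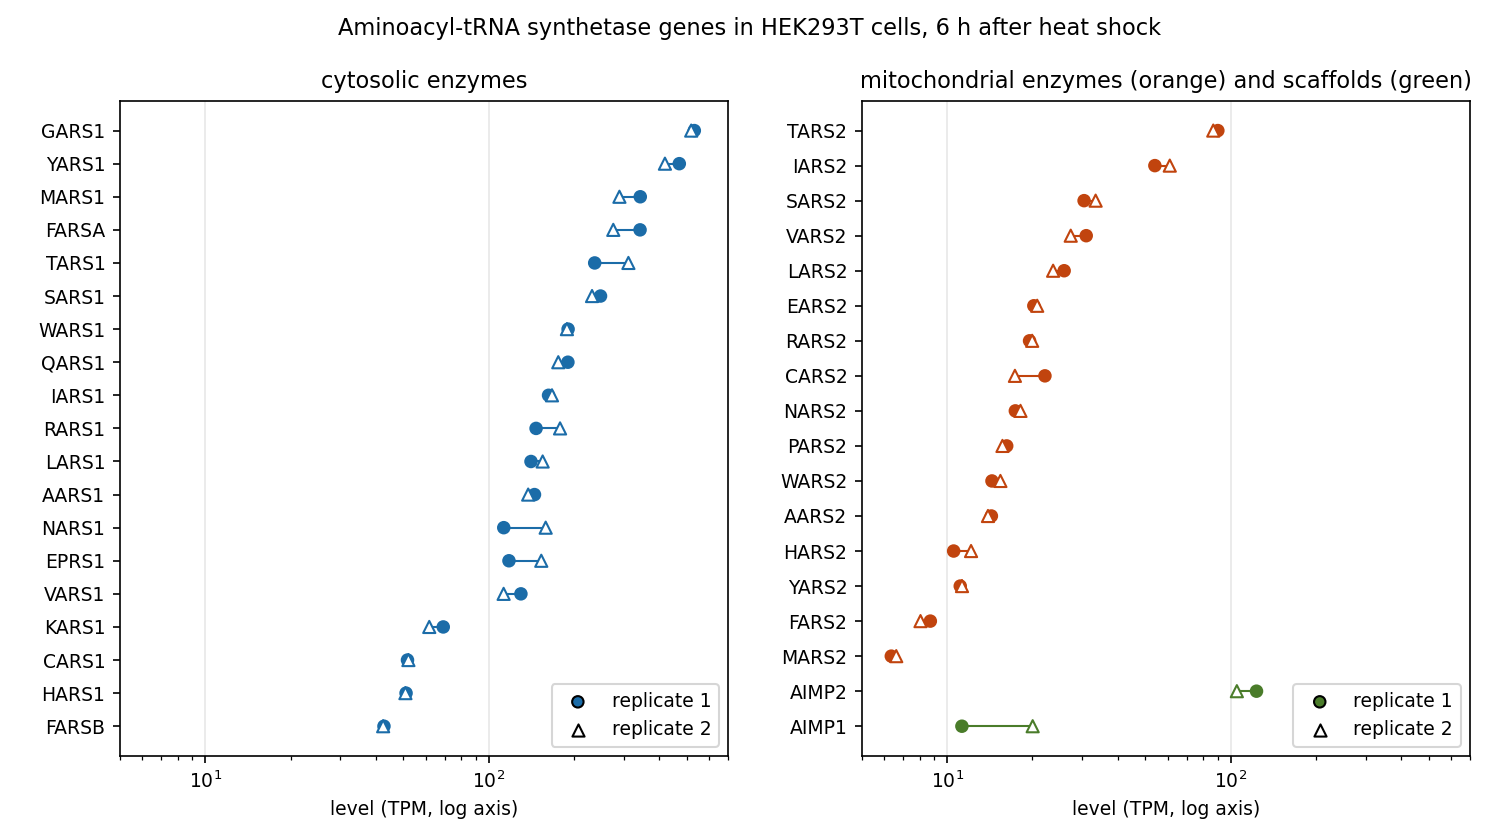
Level of each of the 37 genes in TPM (log axis) in replicate 1 (filled circles) and replicate 2 (open triangles), with a line joining the libraries; cytosolic enzymes are on the left, mitochondrial enzymes (orange) and scaffolds (green) on the right. The cytosolic genes run from about 43 TPM for FARSB to over 518 for GARS1, and 14 of the 16 mitochondrial genes lie below FARSB.

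Genes rather than samples were compared here, so no test was made between the groups. The groups overlapped little. In each library 15 of 19 cytosolic genes stood above the highest mitochondrial gene, TARS2, and 14 of 16 mitochondrial genes stood below the lowest cytosolic gene, FARSB. The exceptions were KARS1, CARS1, HARS1 and FARSB among the cytosolic genes and TARS2 and IARS2 among the mitochondrial ones. The 37 genes together took 0.425% of all TPM in replicate 1 and 0.420% in replicate 2. The cytosolic genes held 0.373% and 0.368%, and the mitochondrial genes 0.0393% and 0.0392%.

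The highest cytosolic genes were GARS1, YARS1, MARS1, FARSA and TARS1. GARS1, the glycine enzyme, stood at 532 TPM in replicate 1 and 519 in replicate 2 (mean 525 ± 9.38, SD, n = 2) and was ranked 168 among the 12367 detected protein-coding genes. It is listed as ENSG00000106105 and lies on the + strand of chromosome 7 at 30620149 to 30673649 in GRCh37, the build of the tables. YARS1, the tyrosine enzyme, stood at 471 and 419 TPM (445 ± 36.7). MARS1, the methionine enzyme of the complex, stood at 343 and 289 TPM (316 ± 37.8). The libraries of GARS1 did not overlap with those of YARS1, nor those of YARS1 with those of MARS1. FARSA, which encodes the alpha subunit of the phenylalanine enzyme, stood at 342 and 275 TPM (309 ± 47.3), and TARS1, the threonine enzyme, at 237 and 311 TPM (274 ± 52.8). MARS1, FARSA and TARS1 each overlapped with the next gene in the order, TARS1 with SARS1, the serine enzyme. The lowest cytosolic genes were CARS1, the cysteine enzyme, at 51.7 and 52.1 TPM, HARS1, the histidine enzyme, at 51.1 and 50.9 TPM, and FARSB, the beta subunit of the phenylalanine enzyme, at 42.7 and 42.4 TPM. These 3 genes differed between libraries by less than they differed from one another. From GARS1 to FARSB the cytosolic levels spanned 12.3-fold (± 0.163) in TPM. Per coding length the ratio of GARS1 to FARSB was 6.05 (± 0.0936), but these genes were then not the highest and lowest. YARS1 was highest and CARS1 lowest on that scale in both libraries, so the cytosolic span was wider than the GARS1 to FARSB ratio. The remaining 11 cytosolic genes lay between 61.7 TPM, for KARS1 in replicate 2, and 248 TPM, for SARS1 in replicate 1.

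Among the mitochondrial genes, TARS2, the threonine enzyme, was highest at 90.2 and 86.9 TPM (88.6 ± 2.33, SD, n = 2). IARS2, the isoleucine enzyme, followed at 54.1 and 61.0 TPM. Next came SARS2, for serine, at 30.4 and 33.4 TPM, VARS2, for valine, at 31.0 and 27.3 TPM, and LARS2, for leucine, at 25.9 and 23.7 TPM. TARS2 and IARS2 were thus the only mitochondrial genes within the cytosolic range, and SARS2 and VARS2 changed places between the libraries. The lowest genes by mean TPM were YARS2, for tyrosine, at 11.1 and 11.3 TPM, FARS2, for phenylalanine, at 8.72 and 8.05 TPM, and MARS2, for methionine, at 6.35 and 6.61 TPM. HARS2, for histidine, at 10.5 and 12.1 TPM, overlapped with YARS2 and was below it in replicate 1. MARS2 (ENSG00000247626, chromosome 2, 198570093 to 198573119, + strand, GRCh37) was also the lowest of the 37 members, at rank 9578 of the 12367 detected protein-coding genes. The other 8 mitochondrial genes, AARS2, CARS2, EARS2, HARS2, NARS2, PARS2, RARS2 and WARS2, lay between 10.5 and 22.1 TPM. Between the libraries, Spearman's rho of TPM was 0.985 over the 37 genes. Of 36 neighbouring ranks, 17 had overlapping libraries, including the whole run from IARS1 at rank 9 to AIMP2 at rank 16, and the order within that run is not resolved.

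The second question was whether the same order held for each amino acid. In 17 of 17 pairs the cytosolic gene was higher than its mitochondrial counterpart in both libraries, and the 95% credibility bounds deposited with the TPM values were apart in both libraries for all 17. The phenylalanine subunits FARSA and FARSB were each set against FARS2, and EPRS1, whose product carries the glutamate and the proline enzyme in a single chain, against both EARS2 and PARS2. The largest ratios were those of methionine, tyrosine and phenylalanine. MARS1 was 54.0 times MARS2 in replicate 1 and 43.8 times in replicate 2. YARS1 was 42.3 and 37.1 times YARS2. FARSA was 39.3 and 34.2 times FARS2. The mitochondrial genes of these pairs were the 3 lowest members by mean TPM, and the cytosolic genes were all among the 4 highest. The smallest ratios were those of cysteine, at 2.34 and 3.005, isoleucine, at 3.01 and 2.74, and threonine, at 2.62 and 3.58, and these 3 ranges overlapped. The median over the pairs was 6.50 in replicate 1 and 7.38 in replicate 2.

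**Figure D2:**
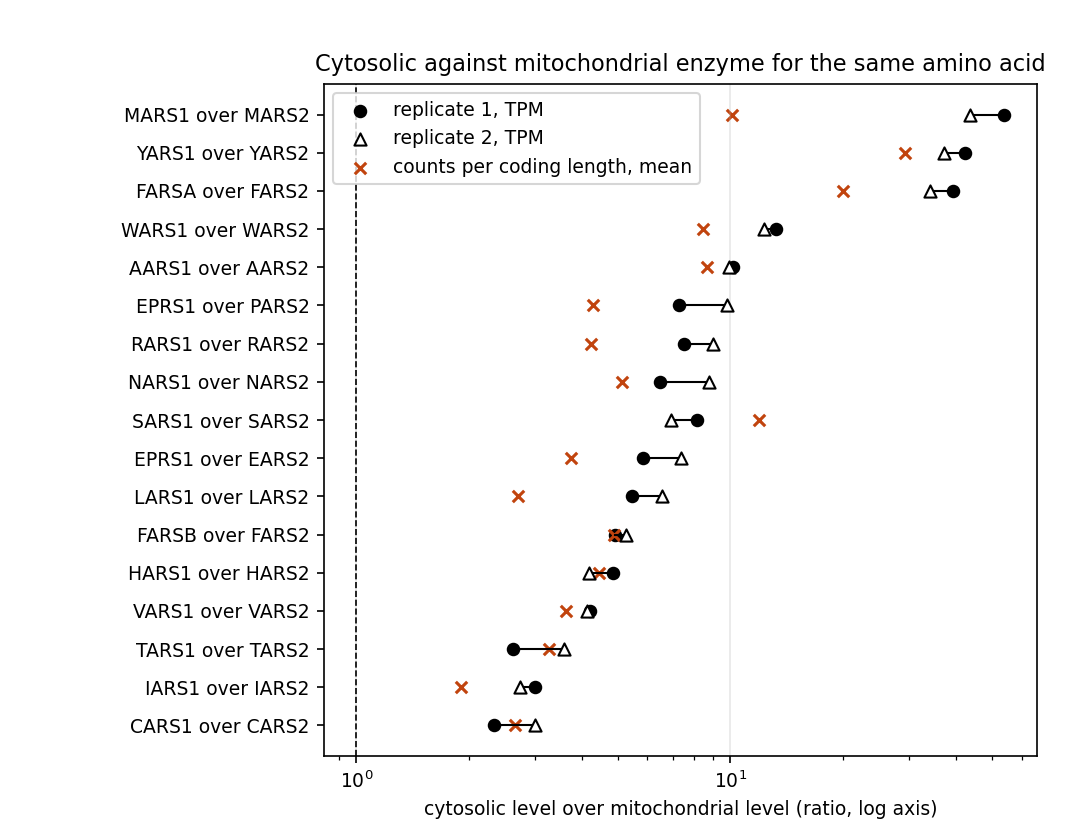
Ratio of the cytosolic to the mitochondrial gene for the same amino acid (log axis; dashed line at equal levels), from TPM in replicate 1 (filled circles) and replicate 2 (open triangles) and from expected counts per longest coding length (crosses, mean of 2 libraries). All 17 pairs of members lie to the right of the line, from CARS1 over CARS2 at the bottom to MARS1 over MARS2 at the top.

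For glutamine no mitochondrial synthetase is known in human cells, and mitochondrial glutaminyl-tRNA is made from glutamyl-tRNA by an amidotransferase of 3 subunits. QARS1, the cytosolic glutamine enzyme, stood at 190 and 176 TPM. Of the amidotransferase subunits, GATB was at 23.5 and 21.1 TPM, GATC at 80.5 and 72.4 TPM, and QRSL1 at 9.26 and 10.6 TPM, and EARS2, which supplies their substrate, was at 20.2 and 20.8 TPM. GATC was the highest and QRSL1 the lowest of the 3 in both libraries. Part of the GATC level is uncertain, since 38.0% of the 50-base sequences of its transcripts also occur in transcripts of SRSF9. That gene is on the opposite strand, at 282 and 278 TPM, and strand use in counting was not stated.

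The length behind each value bore on these ratios. The quantifier weighted the length of a gene by the transcripts it assigned reads to, and for 19 of the 37 members this length was shorter in both libraries than the longest annotated coding sequence. Of these, 14 were cytosolic, 5 mitochondrial and 0 scaffold genes. MARS1 was the extreme, with weighted lengths of 969 and 1004 bases against a coding length of 2700. RARS1, the arginine enzyme, had 995 and 980 bases against 1980, and GARS1 had 1298 and 1302 bases against 2235. A short weighted length raises a TPM, and the levels of these genes were accordingly lower relative to the others when counts were divided by coding length.

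**Figure D3:**
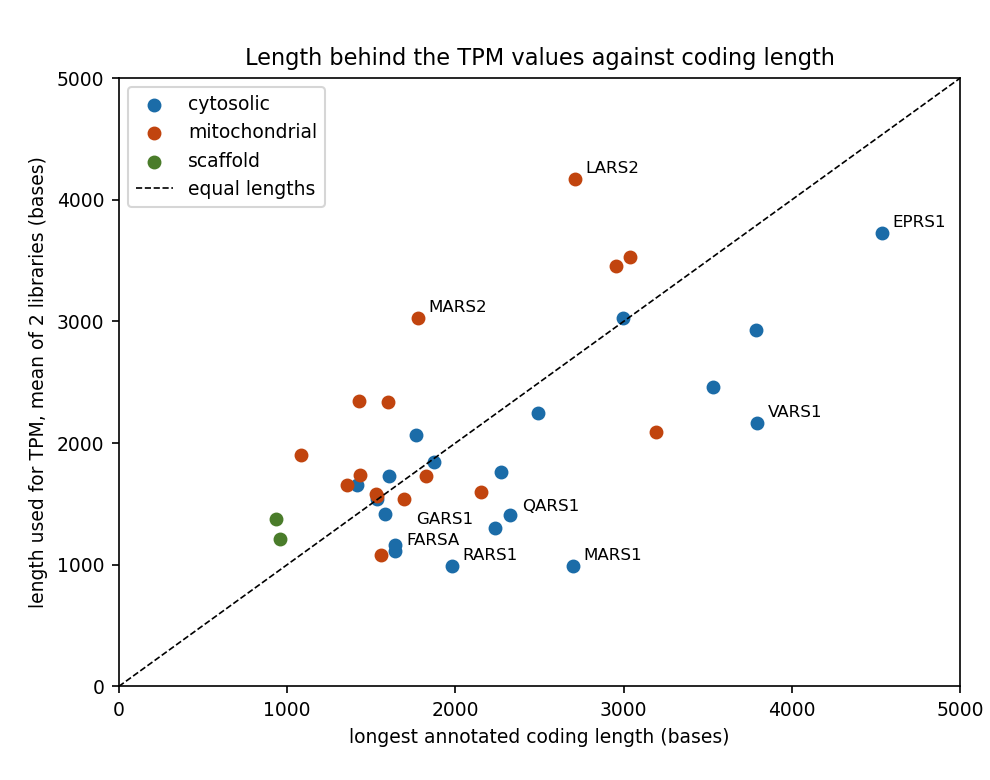
Length that the quantifier used for each gene (mean of 2 libraries, bases) against its longest annotated coding length (bases) for cytosolic (blue), mitochondrial (orange) and scaffold (green) genes, with a dashed line of equal lengths. Cytosolic genes such as MARS1, RARS1, GARS1 and VARS1 lie below the line, and MARS2 and LARS2 lie above it.

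Per coding length the cytosolic gene was still higher in 17 of 17 pairs in both libraries, and the lowest ratio was that of IARS1 to IARS2, at 2.03 and 1.79. The ratio changed by over 1.5 times in 9 pairs, falling in 8 and rising in 1, that of SARS1 to SARS2. MARS1 over MARS2 fell from a mean of 48.9 to 10.1 (± 1.23, SD, n = 2), and LARS1 over LARS2 from 6.01 to 2.70 (± 0.318). YARS1 over YARS2 then became the largest ratio, at 29.3 ± 4.55. The direction of the pairs did not depend on the length used, whereas their order did.

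Some enzymes work as parts of a larger assembly, and the levels of partners were compared next. The multi-synthetase complex holds the enzymes encoded by EPRS1, IARS1, KARS1, LARS1, MARS1, QARS1 and RARS1 together with AIMP1, AIMP2 and EEF1E1. The 7 member enzymes had medians of 147 and 167 TPM, and the 12 cytosolic genes outside the complex had medians of 168 and 174 TPM. The ranges of these groups overlapped, at 69.2 to 343 TPM inside and 42.7 to 532 TPM outside in replicate 1. Within the complex MARS1 was 4.96 and 4.69 times KARS1, the lysine enzyme, but 1.75 ± 0.00774 times per coding length.

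The scaffold genes stood far apart. In GRCh37 AIMP1 (ENSG00000164022) lies on the + strand of chromosome 4 at 107236701 to 107270613, and AIMP2 (ENSG00000106305) on the + strand of chromosome 7 at 6048886 to 6063465. AIMP2 was at 123 TPM in replicate 1 and 105 in replicate 2, within the range of the enzymes of the complex. AIMP1 was at 11.3 and 20.0 TPM, within the range of the mitochondrial enzymes and below every cytosolic enzyme. AIMP2 was therefore 10.96 times AIMP1 in replicate 1 and 5.26 times in replicate 2 (8.11 ± 4.03, SD, n = 2), and the order was the same in both libraries although the size was not. EEF1E1, the other small subunit of the complex, also called AIMP3, stood at 20.9 and 29.9 TPM. Part of the AIMP2 level is uncertain, since 25.2% of the 50-base sequences of its transcripts also occur in transcripts of EIF2AK1, a neighbour on the opposite strand at 180 and 177 TPM, and strand use in counting was not stated.

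The cytosolic phenylalanine enzyme is built from equal numbers of alpha and beta subunits. FARSA, for the alpha subunit, exceeded FARSB, for the beta subunit, by 8.01 times in replicate 1 and 6.49 times in replicate 2 (7.25 ± 1.08, SD, n = 2). Per coding length the ratio was 4.11 ± 0.647, and in expected counts alone it was 3.82 ± 0.602. The genes differ in base composition, with a GC content of 61.9% in FARSA and 41.5% in FARSB, and the part of composition in this ratio was not tested.

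Synthetases fall into a pair of unrelated catalytic classes. Cytosolic class I genes had medians of 163 and 176 TPM and cytosolic class II genes 145 and 159 TPM, each over 9 genes, with EPRS1 left out as it carries a domain of each class. Mitochondrial class I genes, of which there were 9, had medians of 20.2 and 20.0 TPM, and the 7 of class II had 16.2 and 15.7 TPM. The class I median was higher in both libraries and both compartments, by less than the range within either class.

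Several members share their start region with another gene. HARS1 and HARS2 lie head to head on chromosome 5 of GRCh37, HARS1 on the − strand at 140052620 to 140071122 and HARS2 on the + strand at 140071015 to 140078890, so that their annotated 5′ ends overlap by 107 bases. HARS1 was 4.85 times HARS2 in replicate 1 and 4.19 times in replicate 2. Mitochondrial genes also lie head to head with a neighbour, among them SARS2 with MRPS12, a mitochondrial ribosomal protein gene at 24.4 and 19.5 TPM whose start is 181 bases away. RARS2 lies 39 bases from ORC3, an origin recognition gene at 21.2 and 32.5 TPM, and FARS2 lies 94 bases from LYRM4, an iron-sulfur cluster gene at 18.7 and 21.0 TPM. AIMP2 starts 125 bases from PMS2, a mismatch repair gene at 16.3 and 16.6 TPM. SARS2 was higher than MRPS12 in both libraries, and AIMP2 was several times higher than PMS2.

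Reads that fit more than 1 gene were few for most members. The posterior SD of the expected count, which measures how surely reads were assigned, was at most 6.06% of the count, in SARS2, and 0 members exceeded 10%. SARS2 shares 41.0% of its 50-base sequences with a protein-coding gene on the same strand that has no other name than ENSG00000269547, at 1.92 and 1.59 TPM. For VARS2 58.7% of such sequences recur in other annotated transcripts, and for YARS2 16.2%. MARS1 overlaps DDIT3, which encodes the stress factor CHOP, on the opposite strand, and DDIT3 was at 4.14 and 4.64 TPM. VARS2, SARS2 and AIMP2 thus shared the most sequence with other transcripts. The deposited TPM lay outside its own 95% credibility bounds in 4 members, CARS2, EPRS1, SARS1 and YARS1, in at least 1 library.

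The third question was how far the replicates differed. An exact binomial test on expected counts, with libraries scaled by TMM (the trimmed mean of log ratios) and Benjamini-Hochberg adjustment over 19714 genes, compared the libraries and covered counting error only. At an adjusted p of 0.05, 25 of 37 members differed, against 43.1% of all genes tested and 67.7% of the 10080 genes with at least as many counts as the lowest member. The members were thus close to other genes of their depth. Of the 25, 5 were higher in replicate 2, EPRS1, NARS1, RARS1, TARS1 and AIMP1, where 20.9% of all genes were. The other 20 were higher in replicate 1, where 22.2% were. Here and below, shares by direction are over all genes tested and were not taken at the depth of the members. These directions are those of TMM-scaled counts, and TPM could differ in direction, as for IARS1 at 163 and 167 TPM. By group, 18 of 19 cytosolic, 5 of 16 mitochondrial and both scaffold genes passed, and the cytosolic genes also carried far more counts, with medians of 5756 and 6059 against 600 and 688 for the mitochondrial genes. The differences were small. For 24 of 37 members the TMM-scaled expected counts of the libraries lay within 1.2-fold of each other. With a log2 ratio of at least 0.5 also required, only AIMP1 remained, against 13.8% of all genes. An edgeR exact test that assumed a biological coefficient of variation of 0.1 also passed only AIMP1 (adjusted p = 0.0151), against 7.24% of all genes.

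The 3 largest ratios towards replicate 2 were those of AIMP1, NARS1 and EPRS1. AIMP1 had 265.7 and 563.6 expected counts, a log2 ratio of 0.78 (exact binomial test, adjusted p = 8.89e-13). NARS1, the asparagine enzyme, was at 113 and 159 TPM, with a log2 ratio of 0.34 (exact binomial test, adjusted p = 1.08e-17), and EPRS1 at 118 and 153 TPM, with a log2 ratio of 0.28 (exact binomial test, adjusted p = 1.65e-38). All 3 had a GC content below 45%. The 3 largest ratios towards replicate 1 were those of FARSA, with a log2 ratio of -0.44, VARS1, the valine enzyme, with -0.38, and CARS2, the mitochondrial cysteine enzyme, with -0.37. VARS1 was at 130 and 113 TPM, and CARS2 at 22.1 and 17.3 TPM. FARSA, VARS1 and CARS2 had a GC content above 55%.

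The ratio between libraries followed GC content across the members. Over the 37 genes Pearson's r with GC content was -0.68, with a Spearman's rho of -0.72, as a description of genes that share both libraries. Of 10 members below 45% GC, the median log2 ratio was 0.10, against 0.36 for all genes of that class. For the 19 members from 45 to 55% it was -0.20, against -0.06. For the 8 members above 55% it was -0.24, against -0.24. The direction was shared with the whole library, and below 55% GC the medians of the members lay below those of all genes.

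**Figure D4:**
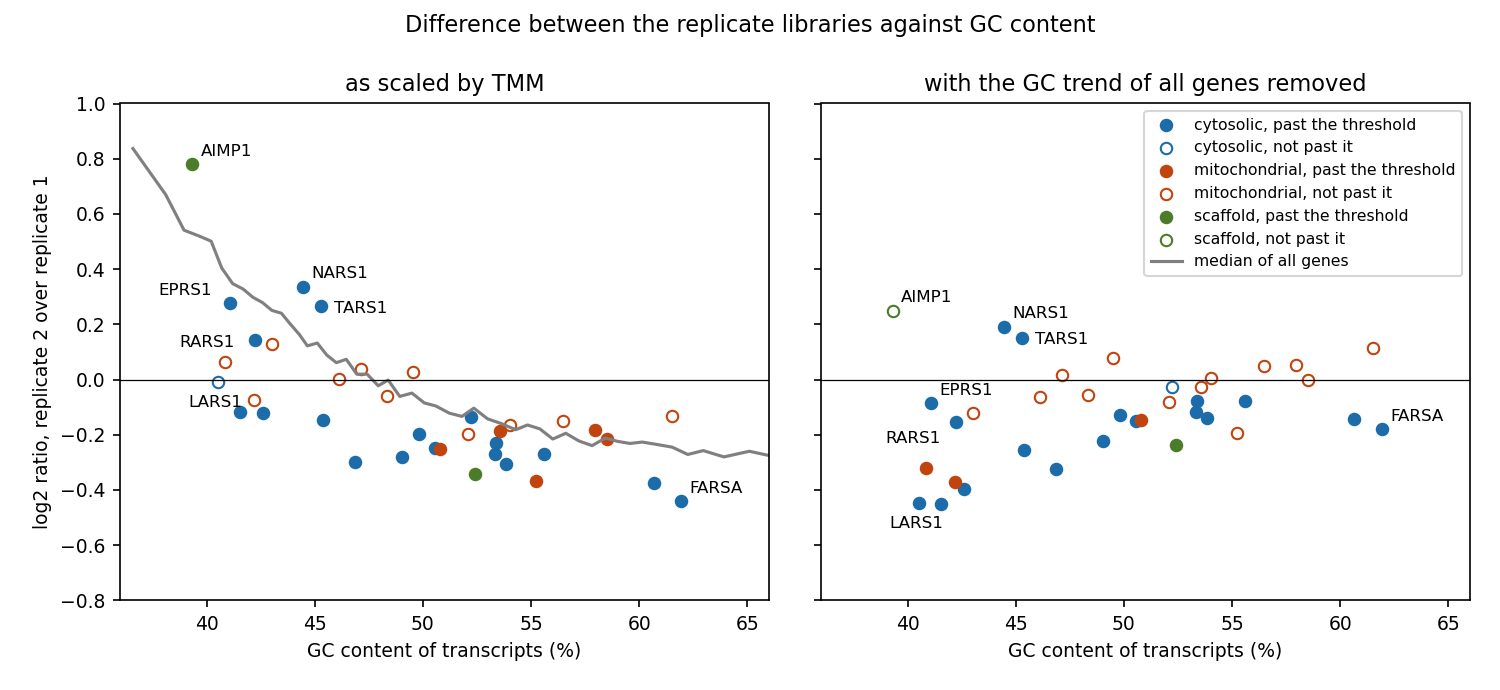
Log2 ratio of replicate 2 over replicate 1 for each member against the GC content of its transcripts (%), as scaled by TMM with the median of all genes as a grey line (left) and with that trend removed (right). Filled points passed an adjusted p of 0.05 in the exact binomial test and open points did not; the members slope down with GC on the left, AIMP1 stands highest in both panels, and NARS1 and TARS1 are the filled points above 0 on the right.

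With the GC trend of all genes removed, 22 members passed, against 28.8% of all genes and 44.7% of genes of at least their depth. NARS1 and TARS1 passed towards replicate 2, where 14.6% of all genes did, and 20 members towards replicate 1, where 14.2% did. For NARS1 the log2 ratio was then 0.19, and for TARS1 0.15. By group these were 18 of 19 cytosolic, 3 of 16 mitochondrial and 1 scaffold gene. HARS1, AARS2, CARS2, TARS2 and VARS2 no longer passed, so that LARS2 alone of the 5 mitochondrial genes passed on both scalings. AIMP1 no longer passed either, with a log2 ratio of 0.25 (exact binomial test, adjusted p = 0.0674). Taking both scalings, 17 members passed in the same direction, NARS1 and TARS1 towards replicate 2 and 15 others towards replicate 1. LARS1, the leucine enzyme, IARS2 and RARS2 passed with the trend removed but not before, and the log2 ratio of LARS1 moved from -0.01 to -0.45. EPRS1 and RARS1, by contrast, turned from higher in replicate 2 to higher in replicate 1.

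The genes with the CHOP-ATF letters did not move together between the libraries. TARS1 and NARS1 were higher in replicate 2 on both scalings of the counts. AARS1, CARS1, GARS1, IARS1 and MARS1 were lower in replicate 2 on both. Before removal of the trend, the log2 ratios of these lower genes ran from -0.31 for MARS1 to -0.12 for IARS1. In TPM, however, CARS1, at 51.7 and 52.1, and IARS1, at 163 and 167, were slightly higher in replicate 2. YARS2, with a log2 ratio of 0.04, passed on neither scaling. In level these genes ranged from YARS2, at 11.1 and 11.3 TPM, to GARS1, at 532 and 519 TPM.

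The other genes of the pathway serve steps before and after charging. A list of 30 was used, covering tRNA maturation and export, mitochondrial tRNA maturation, proofreading, selenocysteine synthesis, the amidotransferase and formyltransferase, and EEF1E1. All 30 were detected, with medians of 22.7 and 22.3 TPM, between those of the mitochondrial and the cytosolic synthetases. Between the libraries 16 of 30 passed the exact binomial test, against 43.1% of all genes. Of these, 6 were towards replicate 2, where 20.9% of all genes were, and 10 towards replicate 1, where 22.2% were. With the GC trend removed 10 passed, against 28.8% of all genes. There 1 was towards replicate 2, against 14.6% of all genes, and 9 towards replicate 1, against 14.2%. The total share without the trend was near that of all genes, but it lay mostly towards replicate 1. XPOT, which exports tRNA from the nucleus, stood at 197 and 248 TPM, above the median of the cytosolic synthetases in both libraries. SSB, the La protein that binds the 3′ ends of newly made tRNA, was at 135 and 276 TPM, and its log2 ratio of 0.94 was reduced to 0.10 without the trend. ELAC2, which trims tRNA 3′ ends, was at 181 and 146 TPM. Those 3 genes stood well above the other genes of maturation and export, whose median was 23.3 and 22.3 TPM with them included. Among mitochondrial genes GTPBP3, a tRNA modification enzyme, was at 120 and 108 TPM, and TRMT10C, a subunit of mitochondrial RNase P, at 35.4 and 61.1 TPM. The proofreading genes AARSD1, DTD1 and DTD2, which act on mischarged tRNA, lay between 17.9 and 36.8 TPM. SEPSECS and PSTK, which make selenocysteine on its tRNA, were the lowest group, between 2.56 and 3.65 TPM.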

How the data were processed

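Poly(A)+ RNA of 2 replicate libraries was sequenced by the authors with 50 bp reads. The molecule field of the labels reads genomic DNA, but their protocol is for RNA, and the data were treated as RNA-Seq. The submitters' processing notes name Trimmomatic 0.36, STAR 2.6.1c, RSEM 1.3.1 and GRCh37, and the tables carry RSEM's columns. The deposited expected counts share multi-mapped reads among genes, and the authors' TPM and FPKM both divide by an effective length. Posterior SDs and credibility bounds, on a scale of never-negative signal, were also deposited by the authors. An authors' pooled table was not used. Totals were 22529828 and 26890199 expected counts, and intervals cover counting and assignment error only.

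Symbols, positions, GC content and coding lengths came from GENCODE release 44 on GRCh37, which matched 96.1% of identifiers. Detection was 1 TPM in both libraries. Expected counts were rounded for the exact binomial test (two-sided, per gene), with shares from edgeR 4.0.16 TMM factors and Benjamini-Hochberg adjustment over all genes whose summed count reached 10. Log2 ratios had a pseudocount of 0.5 count. GC trends were medians in 50 classes of genes with at least 100 counts. The test was checked on simulated counts. Alternatives were FPKM, CPM, posterior mean TPM, other thresholds, library totals, DESeq2 1.42.0 size factors, an edgeR exact test, GC removal and leaving out a replicate. Coding-length ratios, pair ratios with no length and the log2 limit of 0.5 were added after seeing the data.

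Members and lists were chosen with earlier results of these data known. Named in full by rule were the 5 highest and 3 lowest cytosolic and mitochondrial genes, the scaffolds, FARSA and FARSB, and the 3 largest ratios in each direction. Other genes were named by group, and DDIT3, ORC3 and similar neighbours after their values were seen. The study compared with untreated cells, which are not analysed here. Some genes of the pathway list are not reported here.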

Additional observations from a re-analysis of the deposited data

How the results depend on the processing

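No paired analysis was possible because all libraries belong to 1 group. Detection of 37 members, the cytosolic direction of the 17 pairs and the order of the cytosolic and mitochondrial medians held under every alternative run, including each replicate alone. Leaving out a replicate gave a cytosolic median of 147 to 167 TPM, a mitochondrial median of 17.7 to 18.5 TPM, a ratio of medians of 7.96 to 9.43 and a median pair ratio of 6.50 to 7.38. The mitochondrial median was 18.9 with posterior mean TPM. Per coding length the ratio of medians was 5.78 and the median pair ratio 4.82. Members that differed between libraries numbered 25, but 1 under the edgeR exact test and 1 with the log2 limit. Those higher in replicate 2 numbered 5, but 1 under each of these and 2 without the GC trend, and those higher in replicate 1 numbered 20, but 0 under each of these. Removing the GC trend turned the log2 ratio of 9 members, of which those past the threshold on either scaling were EPRS1, which went to -0.0859, RARS1 to -0.153, AARS2 to 0.0511 and IARS2 to -0.321. EARS2, NARS2, PARS2, SARS2 and WARS2 also turned, without passing on either scaling. Scaling by library totals turned LARS1 from -0.01 to 0.04, passing under neither, and DESeq2 size factors, count limits and a pseudocount of 5 turned none. FARSB, whose log2 ratio of -0.12 only just passed, lost its call under DESeq2 size factors, library totals and no count limit, and AARS2 and HARS1 lost theirs under library totals. The test compares 1 library with 1 other, and the member with the fewest counts, FARS2, rests on 253 and 272.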
